A study of Mus musculus with 2 samples.

Results

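Natural killer cells of the mouse uterus were picked out of single-cell RNA profiles by 9 marker genes, and 227 cells met the rule among 7413 kept cells of 7745 deposited barcodes. The control library gave 95 of 4462 kept cells and the library labelled knockout gave 132 of 2951. The control uterus was Mig-6f/f (both alleles of the gene Errfi1 floxed, no Cre), and the other was Pgrcre/+Mig-6f/f, in which Cre recombinase is made from the progesterone receptor gene Pgr. Both were taken from females at gestational day 3.5, shortly before implantation, with 1 uterus and 1 10x droplet library per genotype, and no strain was given in the sources used here. The knockout mouse also carried the Pgrcre allele that the control lacked, so loss of Mig-6 and the Cre allele cannot be told apart. Tissue was digested with trypsin and blood cells were depleted with a dead cell removal kit in both, which bears directly on lymphocytes. With 1 library per group there is no replicate error and no test. Intervals are 95% intervals of counting error only, and a difference between the libraries may be a difference between 2 animals or 2 preparations.

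Natural killer (NK) cells are lymphocytes that carry cytotoxic granules of perforin and granzymes and secrete interferon gamma and chemokines without antigen receptors made by gene rearrangement. They share the transcription factors T-bet (Tbx21) and, in most tissues, Eomes (Eomes), whereas group 2 innate lymphoid cells depend on Gata3 and secrete Il5 and Il13, and group 3 cells secrete Il17a and Il22. In the uterus, NK cells multiply around implantation, accumulate in the decidua and act on its arteries through interferon gamma.

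The members were chosen by their own expression. A cell was selected when at least 3 of Gzma, Nkg7, Il2rb, Xcl1, Klra4, Klra7, Klre1, Ncr1 and Cd7 were detected with a sum of at least 15 per 10000 unique molecular identifiers (UMIs, counted transcript molecules), and when the epithelial genes Epcam, Krt8, Krt18 and Cldn7 and the stromal genes Dcn, Col1a2 and Col3a1 each summed to under 10. The levels of these genes are therefore a description. The marker sum had a median of 64.5 per 10000 in the control and 65.9 in the library labelled knockout. The lowest sums inside were 21.4 and 17.5, and no cell that met the other limits fell out by its sum. Cells with a sufficient sum but only 2 markers numbered 1 and 11, and those with just 3 numbered 2 and 16. A further 6 and 5 cells fell out by the epithelial or stromal limit.

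Depth differed strongly between the libraries in these cells. The median was 6060 UMIs per cell in the control (836 to 15641) and 1748 in the library labelled knockout (659 to 4870), with medians of 2421 and 1009.5 genes. Mitochondrial UMIs were 2.41% and 2.33% of the total. Over all kept cells the medians were 9252 and 4968 UMIs, and the deposited barcode lists of the libraries shared 3 barcodes, 0 of them selected. Summed over the selected cells, 633970 and 266486 UMIs were available, and levels below are UMI counts scaled to a common total of these sums (CPM).

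Selected cells were 2.13% of kept cells in the control (exact 95% interval 1.73 to 2.60) and 4.47% in the library labelled knockout (3.76 to 5.28). The rule loses shallow cells, since it asks for 3 detected markers. With every kept cell thinned to 1000 UMIs before the rule, an alternative added after seeing the data, the shares were 1.69% and 3.59%. With a minimum of 1000 genes per cell they were 2.12% and 2.54%, and only 67 of the 132 cells of the library labelled knockout were left. A share of recovered cells also moves with what the digestion and the depletion released of other cell types, and this was not tested.

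The label was then checked against markers that the rule did not use. The NK receptors and adaptors were present in both libraries. Klrk1 (the activating receptor NKG2D) was 427 and 604 CPM in the control and the library labelled knockout, Tyrobp (the signalling adaptor DAP12) 1065 and 1527 CPM, and Fcer1g, another signalling adaptor, 899 and 1002 CPM. Eomes was 109 CPM (69 UMIs in 41 cells) and 101 CPM (27 UMIs in 21 cells), and Tbx21 was 153 CPM (97 UMIs in 57 cells) and 259 CPM (69 UMIs in 42 cells). At least 1 of these 2 factors was detected in 71 of 95 and 55 of 132 cells.

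Several defining markers of other blood cells were at 0 UMIs. These were Lyz2, Csf1r and C1qa of macrophages, all 7 neutrophil markers, Cd79a of B cells, all 4 hemoglobin genes, and Cd4, Cd8a, Cd8b1 and Foxp3 of T cell subsets. Of the endothelial list only Pecam1, which lymphocytes also express, was found, and the other 6 members were at 0. Not all members of these lists were at 0. The 12 macrophage and myeloid genes summed to 256 and 75 UMIs, in 31 and 20 cells, and 5 of them were at 0 in both libraries. Most of these UMIs were of the class II antigen presentation genes Cd74 (162 and 52 UMIs in 14 and 12 cells) and H2-Aa (69 and 18 UMIs in 17 and 8 cells). The 7 B and plasma cell genes summed to 59 and 19 UMIs, in 40 and 17 cells, and 5 of them were at 0 in both. All but 2 of these UMIs were of Xbp1, a secretory stress factor that is not limited to plasma cells. The part of these transcripts in the results below was not tested. The label's innate lymphoid part was not matched by defining group 2 or group 3 markers in the selected cells. The rule asked for NK markers, so cells of these groups without them had been left out beforehand. Their absence here therefore cannot show whether such cells were in the tissue. The Il5 cells described further below had 0 rule markers and lay outside the selection. Of the 29 genes of the group 2 list, 16 had 0 UMIs in both libraries, among them Il5, Il13, Il1rl1 and Il17rb, and Il17a and Il22 were also at 0. The cells are called NK cells below. Group 1 innate lymphoid cells share most of these genes with NK cells and were not separated from them.

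Free RNA from broken cells was measurable in the selected cells. Uterine epithelial transcripts were higher in the library labelled knockout, where Prap1 had 31 UMIs against 0, Lcn2 13 against 1, and Wfdc2 15 against 8. The 12 genes of the epithelial list summed to 61.5 CPM in control cells and 413 CPM in the other library, in 30 and 63 cells. The 12 stromal genes summed to 123 and 48.8 CPM. A gene is named below as possibly supplied by free RNA where, in the library in which these cells had more of it, its level was under 0.25 of that in stroma or epithelium. The lower of the levels compared is not covered by this rule and may hold free RNA as well.

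Errfi1, the floxed gene, was also measured in these cells. It had 58 UMIs in the control (91.5 CPM) and 42 in the library labelled knockout (158 CPM), with a ratio of 1.72 (1.13 to 2.61), so it was not lower under the knockout label in these cells. In the library labelled knockout its level was below 0.25 of the stromal or epithelial level and may come from free RNA. The rule above does not cover the control level, and the part of free RNA was not tested. Pgr, whose promoter drives Cre, was found in 1 cell of each library (4 and 7 UMIs), against 75.5% and 64.3% of stromal cells. With Pgr this rare, Errfi1 in the selected cells cannot check the knockout label in either direction. Transcripts of the genes that ERK signalling induces as its own brakes, the pathway Mig-6 restrains, were within 2-fold for 8 of 8 measured members, with Dusp5 at 315 and 428 CPM and Spry2 at 144 and 180 CPM.

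Over all genes, 5812 had at least 20 UMIs in the selected cells of both libraries together, outside the rule. Of these, 270 (4.65%) were at least 2-fold higher in the library labelled knockout and 428 (7.36%) at least 2-fold lower. Scaled by the median of the gene ratios in place of the totals, 199 were higher and 520 lower. Without genes that free RNA could supply the shares were 4.66% and 7.25%. Counting error alone weighs heavily here: 178 of the 270 and 287 of the 428 had under 50 UMIs, and the interval of the ratio reached 1 or beyond in all but 206 and 237 of them. The median log2 ratio of all these genes was 0.03. Lists of genes are described by their counts and medians against these values, and the lists were drawn up with earlier results of these data known. Shares and medians over all genes are given for all selected cells only. List counts in subsets of the cells, given further below, have no such background.

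The genes of the rule themselves were near their control level for the most part. Nkg7, a granule membrane protein, was 1087 and 1073 CPM in the control and the library labelled knockout, Il2rb, the receptor chain for interleukins 2 and 15, 874 and 1043 CPM, and Xcl1, a chemokine that attracts dendritic cells, 727 and 856 CPM. Klra4 was 519 and 784 CPM and Klre1 464 and 672 CPM, both lectin-like receptors. The granzyme gene Gzma was lower, 2011 and 1216 CPM, and was detected in 60 and 56 cells. Ncr1, the activating receptor NKp46, was 230 and 120 CPM, and Cd7, a surface glycoprotein of lymphocytes, was the widest gap upward, 289 and 664 CPM. The selection used all of these values.

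NK surface and adaptor genes outside the rule kept within 2-fold in 21 of 22 measured members, with a median log2 ratio of 0.24. Klrd1, the partner of the NKG2 receptors, was 218 and 270 CPM, Hcst, the adaptor DAP10, 164 and 278 CPM, with a ratio of 1.69 (1.24 to 2.30), and Ptprc, the leukocyte antigen CD45, 1292 and 1711 CPM. The member beyond 2-fold was Klrc2, on 9 and 11 UMIs. Klra genes are near-identical copies, so reads may be shared among them and their single values are uncertain. Among 11 measured genes typical of circulating NK cells, all were within 2-fold, with Itga2 (the integrin chain DX5) at 110 and 150 CPM and Irf8 at 1975 and 2364 CPM. S1pr5, which lets NK cells leave tissue, was at 0 in both libraries, 0 of 95 and 0 of 132 cells, which allows shares of cells with a UMI of up to 3.16% and 2.27% (3 cells of each total).

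Of 10 measured genes of tissue-resident NK cells and group 1 innate lymphoid cells, 1 was at least 2-fold higher and 0 lower, and the median was 0.49. That gene was Ltb, lymphotoxin beta, at 41.0 CPM (26 UMIs in 22 cells) in control cells and 124 CPM (33 UMIs in 27 cells) in the library labelled knockout, with a ratio of 3.02 (1.75 to 5.26). The tetraspanin gene Cd9 was next, at 117 and 233 CPM, with a ratio of 1.99 (1.40 to 2.83). Itga1, the integrin chain CD49a that marks resident cells, was 103 and 131 CPM, with a ratio of 1.28 (0.824 to 1.96). Itga1 and Itga2 were not exclusive. Of 32 Itga1 cells in the control 14 also had Itga2, and of 26 in the other library 5 did.

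The killing machinery was present at similar levels for most of its members. Perforin, Prf1, was 189 CPM (120 UMIs in 47 cells) and 188 CPM (50 UMIs in 37 cells). Of 15 measured granule genes 14 were within 2-fold, and the median was 0.11. The cathepsin gene Ctsw was 388 and 552 CPM, and Srgn, the proteoglycan that packs granules, 1129 and 1625 CPM. Granzymes were the lower members. Gzmb was 585 CPM (371 UMIs in 71 cells) in control cells and 345 CPM (92 UMIs in 36 cells) in the library labelled knockout, with a ratio of 0.590 (0.464 to 0.743). Gzmc was 107 CPM (68 UMIs in 15 cells) and 33.8 CPM (9 UMIs in 6 cells), with a ratio of 0.315 (0.138 to 0.634). Gzmd, Gzme and Gzmf, the granzymes abundant in decidual NK cells of later pregnancy, had 10, 4 and 5 UMIs in the control and 0, 2 and 1 in the other library, and Gzmg had 0. Granzyme genes are close copies, and the counts of Gzmc to Gzmg may be shared among them. Thinned to 1000 UMIs, the share of cells with Gzmb was 35.2% and 19.8%, against 74.7% and 27.3% at full depth.

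**Figure D1:**
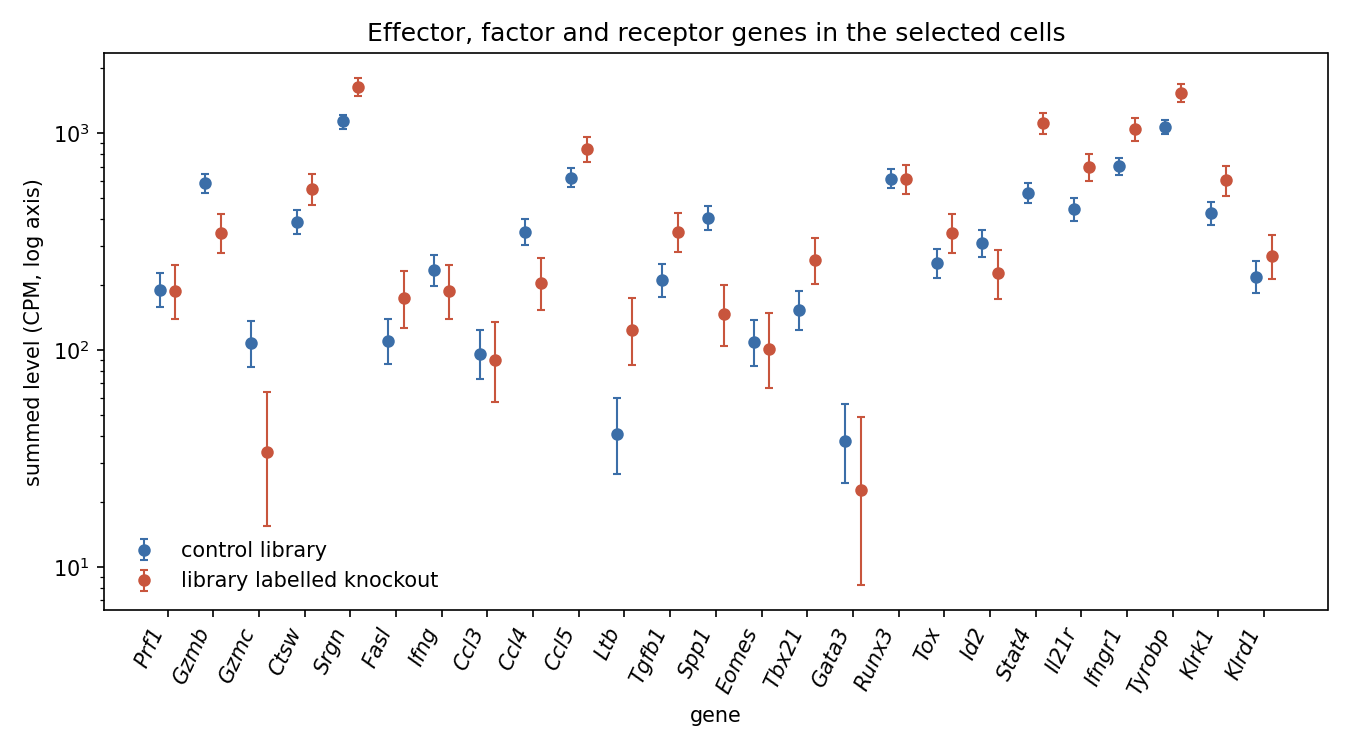
Summed level in the selected cells of 25 effector, factor and receptor genes, in CPM on a log axis, for the control library and the library labelled knockout. Points are sums over 95 and 132 cells and bars are exact 95% Poisson intervals, which cover counting error only. Prf1 was level at 189 and 188 CPM, Gzmc and Spp1 were lower and Ltb and Stat4 higher in the library labelled knockout.

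Secreted factors went in different directions. Of the 12 measured, 2 lay at least 2-fold above the control (Ltb, and Vegfa on 13 and 11 UMIs) and 1 at least 2-fold lower, and the median was 0.08. Spp1, the secreted phosphoprotein osteopontin, was 405 CPM (257 UMIs in 39 cells) in control cells and 146 CPM (39 UMIs in 21 cells) in the library labelled knockout, with a ratio of 0.361 (0.251 to 0.507). In epithelium Spp1 was 252 and 1309 CPM, so the value in the library labelled knockout was a small share of that of its epithelium, and the part of free RNA in it was not tested. Tgfb1 was 210 and 349 CPM. The chemokine genes Ccl3 and Ccl4 were 96.2 and 90.1 CPM and 350 and 203 CPM, the latter, with a ratio of 0.579 (0.422 to 0.782). Ccl5 was 621 and 841 CPM, but its log2 ratio turned to -0.065 when cells of at least 1000 UMIs were weighted equally. That is the value expected from thinning them to 1000 UMIs, and cells under 1000 UMIs were left out. With at least 1000 genes per cell the log2 ratio of Ccl5 was -0.48. Ifng was 233 CPM (148 UMIs in 34 cells) and 188 CPM (50 UMIs in 23 cells), with a ratio of 0.804 (0.571 to 1.11). A single control cell held 42 of the 148 UMIs of Ifng.

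Receptors and their kinases and STAT factors had a median log2 ratio of 0.54 over 20 measured members, against 0.03 for all genes, with 1 at least 2-fold higher and 1 at least 2-fold lower. Stat4, which relays interleukin 12, was 528 CPM (335 UMIs in 78 cells) in control cells and 1107 CPM (295 UMIs in 99 cells) in the library labelled knockout, with a ratio of 2.09 (1.79 to 2.46). The interleukin 21 receptor Il21r was 445 and 694 CPM, Ifngr1 702 and 1039 CPM, and the common gamma chain Il2rg 155 and 248 CPM, with a ratio of 1.60 (1.15 to 2.21). Il12rb2, which pairs in the interleukin 12 receptor, was 333 and 338 CPM. Socs2, a STAT-induced inhibitor of cytokine signalling, had 26 UMIs in 16 control cells and 0 in the library labelled knockout. Against the floor of 3 UMIs in that library it was at least 3.64-fold lower.

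Lineage factors were within 2-fold for 20 of 20 measured members. Runx3 was 615 and 612 CPM, Tox 251 and 345 CPM, and Id2, the inhibitor that all innate lymphoid cells need, 311 and 225 CPM. The ratio of Tbx21 was 1.69 (1.22 to 2.33) and that of Eomes 0.931 (0.573 to 1.47). Both factors were found together in 27 of 41 Eomes cells of the control and in 8 of 21 of the library labelled knockout, at depths that differed by the factor given above.

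No selected cell had a UMI of Il5, 0 of 95 and 0 of 132, which allows shares of up to 3.16% and 2.27% of cells with a UMI, by the same limit of 3 cells. Il5 was found elsewhere, in 2 kept control cells and 5 kept cells of the library labelled knockout that carried 0 of the 9 rule markers. Of these 5 cells, 4 had Gata3, 3 had Il1rl1 (the receptor of interleukin 33), 4 had Areg and 0 had Cd3e. In the 2 control cells none of these was detected. Both control cells were in the stroma class and 1 of the 5 others in the epithelium class, where single UMIs may be background. These 7 cells are too few to describe further.

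Gata3, which group 2 cells need and T and NK cells also express, was found in 21 of 95 control cells (22.1%, 14.2 to 31.8) and in 6 of 132 cells of the library labelled knockout (4.55%, 1.69 to 9.63). Stromal cells had it in 0.863% and 0.234%, and epithelial cells in 0.407% and 0.275%, at median depths of 8899.5 and 3644 UMIs and 11793 and 9644 UMIs. At 1000 UMIs per cell the shares in NK cells were 4.23% and 2.32%, and the level was 37.9 CPM (24 UMIs) and 22.5 CPM (6 UMIs), with a ratio of 0.595 (0.199 to 1.49). A difference between the libraries was not detectable at this depth. Of the Gata3 cells, 18 of 21 in the control and 2 of 6 in the other library also had Eomes or Tbx21, beside 71 of 95 and 55 of 132 among all selected cells, and 0 had Il1rl1. Mki67 or Top2a was in 16 of the 21 and 2 of the 6, beside 57 of 95 and 32 of 132 among all selected cells.

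Against the Gata3-negative cells of the same library, the leading genes were Acsl5, an enzyme that activates fatty acids (2.39-fold in the control, 9.42-fold on 3 UMIs in the other library), and the chaperones Hsph1 (1.52-fold and 2.10-fold), Hsp90aa1 and Hspa8. Ranbp1, Iws1, Timm23, Snhg12, Tmsb10 and Sytl3 completed the 10 genes of the ranking. In the control the interval of the ratio included 1 for Iws1, Timm23, Snhg12, Tmsb10 and Sytl3, and for Ranbp1 its lower bound was 1.01. Gata3 cells were deeper than the others, with a median of 6432 against 6051 UMIs in the control and 2917 against 1722 in the library labelled knockout. The 6 cells of that library hold 15963 UMIs in all, so its values rest on few molecules.

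Cd3e, a chain of the T cell receptor complex, was found in 5 control cells (5.26%, 1.73 to 11.9) and 1 cell of the library labelled knockout (0.758%, 0.0192 to 4.15). In stroma the shares were 0.0719% and 0% and in epithelium 0% and 0.0687%. At 1000 UMIs per cell the shares were 1.68% and 0.700%. Any of Cd3e, Cd3d and Cd3g was found in 7 and 2 cells. Constant-region transcripts of T cell receptor loci were far more widespread. Trbc1 was in 63 and 62 cells, Trbc2 in 31 and 34 and Trdc in 45 and 37, whereas Trac, the constant region of the alpha chain, was in 4 and 3. NK cells are known to transcribe beta and delta constant regions without a rearranged receptor. Trbc1 and Trbc2 are near-identical, and reads may be shared between them. Trbc2 was in 7 of 7 control cells with a Cd3 chain and in 1 of 2 in the library labelled knockout.

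The Cd3e cells of both libraries together were set against the rest, since 1 library held only 1. Ifng was 6.70-fold higher in them (4.49 to 9.75), Ikzf2, the factor Helios, 6.62-fold (4.17 to 10.2) and Ccl5 4.33-fold (3.34 to 5.54). Trbc2 and Trdc, Hspa1a, Hspa1b, Dnajb1 and Hsp90aa1 and the phosphodiesterase gene Pde10a completed the list. These values come almost wholly from 5 control cells with 25810 UMIs, and of the Ifng and Hspa1a UMIs in Cd3e cells 0 were from the library labelled knockout. Leaving out Cd3e cells gave 268 and 412 genes beyond 2-fold in place of 270 and 428.

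Cell division was the part of the programme that differed over most genes. The proliferation genes Mki67 and Top2a (topoisomerase II alpha), either or both, were detected in 57 of 95 control cells (60.0%, 49.4 to 69.9) and 32 of 132 cells of the library labelled knockout (24.2%, 17.2 to 32.5). Stroma had 5.65% and 1.87% and epithelium 15.2% and 4.60%. At 1000 UMIs per cell the NK shares were 29.4% and 18.0%, and among cells with at least 1000 genes 61.3% and 43.3%. This grouping was chosen after the data had been seen. Within both libraries the cells with Mki67 or Top2a were the deeper ones, with medians of 7279 against 4512 UMIs and 2870.5 against 1477.5.

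**Figure D2:**
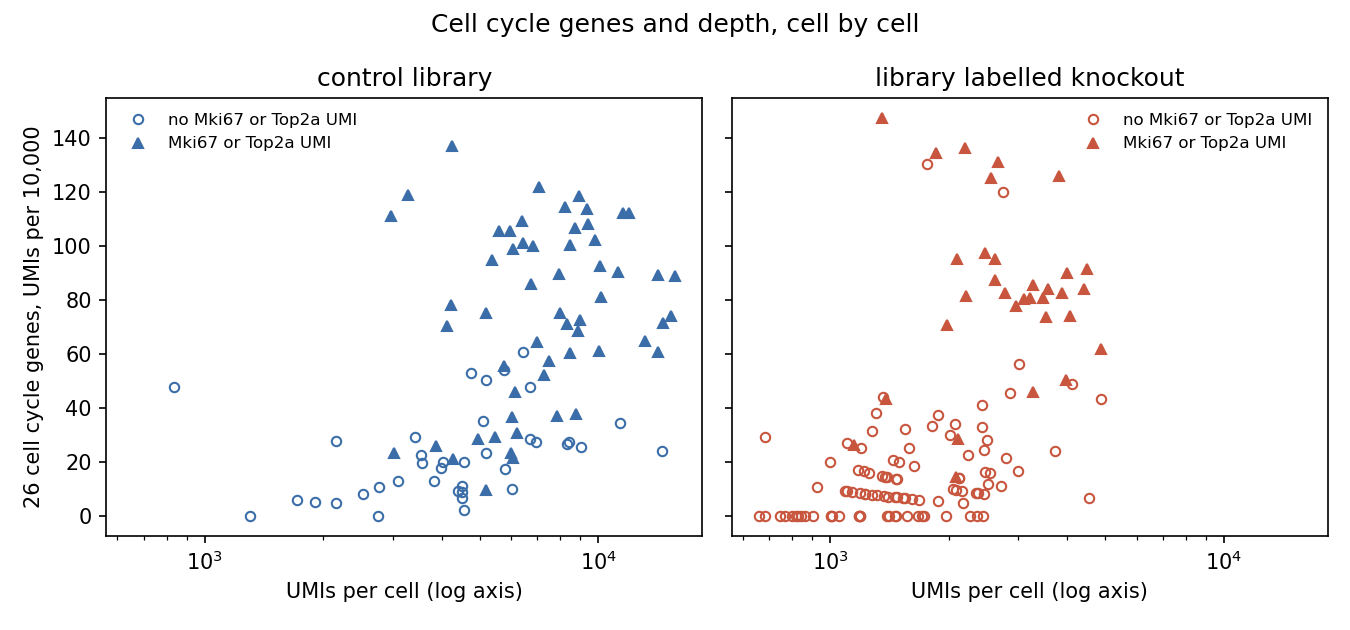
Summed UMIs of the 26 cell cycle genes per 10000 UMIs of each selected cell against its depth (log axis), in the control library and the library labelled knockout. Filled triangles are cells with a Mki67 or Top2a UMI (57 and 32) and open circles the others (38 and 100). Cells high in cell cycle genes were found in both libraries, and the cell medians were 50.2 and 15.2 per 10000.

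Of 26 measured cell cycle genes 0 were at least 2-fold higher and 11 at least 2-fold lower in the library labelled knockout, with a median log2 ratio of -0.81. The replication helicase genes were prominent. Mcm2 had 36 UMIs in 25 control cells and 1 UMI in the other library, with a ratio of 0.0661 (0.00163 to 0.392). Mcm3 was 169 and 71.3 CPM, and Mcm6 was 192 and 75.1 CPM. Pcna, the sliding clamp of DNA polymerases, was 200 and 97.6 CPM, and Pclaf, which binds it, 282 and 124 CPM, with a ratio of 0.439 (0.293 to 0.639). Hells, a chromatin remodeller of S phase, was 82.0 and 18.8 CPM.

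Genes of entry into mitosis were lower too. Cdk1, the mitotic kinase, was 69.4 CPM (44 UMIs in 31 cells) in the control and had 4 UMIs in 3 cells of the other library, with a ratio of 0.216 (0.0564 to 0.594). Its cyclin Ccnb1 was 39.4 CPM and 7.51 CPM on 25 and 2 UMIs. The kinetochore gene Cenpf was 104 and 41.3 CPM, Nusap1 of the spindle 99.4 and 33.8 CPM, and the kinase Aurkb had 25 and 1 UMIs. Other members of the same list were closer to the control, with Mki67 at 232 and 161 CPM, Top2a at 344 and 240 CPM, and Ccnb2 at 115 and 97.6 CPM. Cenpa, the centromeric histone, was higher, at 232 and 368 CPM, with a ratio of 1.59 (1.22 to 2.06).

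The list depended on which cells were summed. Among cells with at least 1000 genes its median was -0.33, with 7 of 26 at least 2-fold lower. Among cells with Mki67 or Top2a the median was -0.10, with 2 higher and 5 lower. Pclaf was 344 and 329 CPM there, with a ratio of 0.957 (0.628 to 1.41), and Mcm3 188 and 170 CPM, with a ratio of 0.905 (0.495 to 1.56). Among the cells without Mki67 or Top2a, 6 of 11 measured members were at least 2-fold lower and the median was -1.32, with Pclaf at 134 and 11.6 CPM. The share of all genes that were lower in these cells was not calculated. A split by a detected UMI depends on depth, and the part of depth in these values was not tested beyond the thinned shares given.

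Promoters of the mitotic genes hold CCAAT boxes, the letters bound by the factor NF-Y. Windows of 250 bases before the start were taken from RefSeq (GRCm38.p6) for 22 of the 26 cell cycle genes. CCAAT or its complement ATTGG was in 18 of the 22, against 37.5% of 27025 genes with a window. TTTGAA, the core of the cell cycle homology region, was in 7 of 22 against 18.3%, and the E2F-type letters GGCGGGAA in 1 of 22 against 2.13%. Both strands were searched for the 3 motifs, a match is not evidence of binding, and no binding was measured. Of the 10 genes with a window that were at least 2-fold lower, 8 held CCAAT. A stretch of 150 bases, from 180 to 31 bases before the start, is shown for 4 of those genes, chosen because each holds 2 CCAAT boxes there. Capitals mark CCAAT or ATTGG, each sequence is written 5′ to 3′ along its gene's strand, and the positions are chr10:69352943-69353092 (minus strand) for Cdk1, chr13:100786517-100786666 (minus) for Ccnb1, chr1:189688117-189688266 (minus) for Cenpf and chr9:65890143-65890292 (plus) for Pclaf.
Cdk1: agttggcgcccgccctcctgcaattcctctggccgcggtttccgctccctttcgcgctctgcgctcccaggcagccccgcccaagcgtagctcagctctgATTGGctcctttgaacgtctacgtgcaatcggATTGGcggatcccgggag
Ccnb1: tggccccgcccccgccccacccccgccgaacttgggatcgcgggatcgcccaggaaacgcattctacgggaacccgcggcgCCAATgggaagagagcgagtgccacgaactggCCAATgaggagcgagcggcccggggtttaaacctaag
Cenpf: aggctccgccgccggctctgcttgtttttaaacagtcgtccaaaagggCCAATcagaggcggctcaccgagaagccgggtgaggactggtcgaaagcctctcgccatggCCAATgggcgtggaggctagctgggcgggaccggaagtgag
Pclaf: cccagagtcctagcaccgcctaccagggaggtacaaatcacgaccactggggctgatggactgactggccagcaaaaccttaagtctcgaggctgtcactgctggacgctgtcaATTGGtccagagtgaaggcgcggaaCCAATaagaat

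Genes that went with division among the NK cells themselves were compared within each library. Cells with Mki67 or Top2a had more transcripts of the spindle and chromosome genes Prc1, Incenp, Racgap1 and Cenpp and of the tubulin gene Tubb5 (3.63-fold in the control and 3.62-fold in the library labelled knockout). NK genes went both ways. Among the NK surface and adaptor genes with at least 20 UMIs in a library and no sign of free RNA by the rule above, 9 of 20 were higher and 11 lower in dividing control cells, with a median log2 ratio of -0.09, and 1 of 11 was higher and 10 lower in the library labelled knockout, with a median of -0.39. Granule genes were lower for 8 of 12 in the control and 4 of 9 in the other library, and lineage factors for 5 of 18 and 12 of 17. The share of all genes higher or lower in dividing cells was not calculated, so these counts cannot be set against it. In control cells Id2 was 367 CPM in dividing and 177 CPM in other cells, Il12rb2 385 and 209 CPM and Eomes 125 and 69.6 CPM. The same genes were 223 and 226, 319 and 348, and 95.7 and 104 CPM in the library labelled knockout. The genes named in this comparison were chosen after their values were seen. Tyrobp was 892 CPM in dividing and 1477 CPM in other control cells, with a ratio of 0.604 (0.517 to 0.707), and 903 and 1868 CPM in the other library. Ccl5 was 503 and 904 CPM, and 500 and 1027 CPM, so it was lower in dividing cells of both. Cd27, a receptor of the tumour necrosis factor family that marks less mature NK cells, was 73.8 and 144 CPM in the control. Ifng was 139 and 460 CPM in the control, with a ratio of 0.301 (0.214 to 0.423), and 170 and 197 CPM in the library labelled knockout. Control Ifng UMIs were 62 in dividing and 86 in other cells, and a single control cell held 42. The interval does not cover the weight of 1 cell. CPM are shares of a cell's RNA, so a lower share and a larger total RNA cannot be told apart.

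Because the libraries held different numbers of such cells, effector genes were also compared without them, in 38 and 100 cells, an alternative added after seeing the data. Gzmb was then 888 and 377 CPM, with a ratio of 0.424 (0.314 to 0.569), Ifng 460 and 197 CPM, with a ratio of 0.429 (0.279 to 0.644), and Ccl4 503 and 180 CPM, with a ratio of 0.357 (0.230 to 0.542). All 3 were within 2-fold over all selected cells and beyond it here. In the dividing cells the ratios were 0.626 (0.403 to 0.938) for Gzmb, 1.23 (0.661 to 2.15) for Ifng and 0.854 (0.523 to 1.34) for Ccl4. A single control cell held 42 Ifng UMIs, beside control sums of 86 without and 62 with Mki67 or Top2a. The Ifng ratios of the 2 classes may therefore rest largely on 1 cell, which their intervals do not cover. Stat4 was higher in both classes, with ratios of 2.75 (2.09 to 3.64) without and 1.92 (1.52 to 2.42) with Mki67 or Top2a.

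Enzymes of glycolysis were lower. Of 14 measured members of the list 4 were at least 2-fold lower and 0 higher, with a median of -0.74. Phosphoglycerate kinase, Pgk1, was 309 CPM (196 UMIs in 69 cells) and 120 CPM (32 UMIs in 25 cells), with a ratio of 0.388 (0.259 to 0.566). Enolase, Eno1, was 128 and 37.5 CPM, pyruvate kinase, Pkm, 262 and 109 CPM, and Tpi1 274 and 131 CPM. Aldoa, Gapdh and Ldha were lower by less than 2-fold, at 341 and 173, 421 and 236, and 532 and 308 CPM. Pfkp and Gpi1 were level, at 262 and 259 CPM and 353 and 364 CPM, and the regulator Hif1a was 126 and 184 CPM. Among cells with at least 1000 genes the median was -0.66 with 4 lower, and among dividing cells it was -0.40 with 3 of 12 lower. Among cells without Mki67 or Top2a it was -1.08 with 6 of 11 lower. Cells without such a UMI may still divide, and Pclaf was 134 and 11.6 CPM in them. The share of all genes that were lower there was not calculated. Whether the lower levels were limited to dividing cells was therefore not tested.

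Genes of NF-kB signalling and lymphocyte activation were on the higher side. All 19 measured members had a log2 ratio above 0, 3 were at least 2-fold higher, and the median was 0.49 against 0.03 for all genes. Relb, the factor of the alternative NF-kB pathway, was 91.5 CPM (58 UMIs in 39 cells) in control cells and 281 CPM (75 UMIs in 49 cells) in the library labelled knockout, with a ratio of 3.08 (2.15 to 4.41). Nfkbiz was 66.2 and 143 CPM, Birc3, an inhibitor of cell death that NF-kB induces, 71.0 and 146 CPM, and the adhesion receptor Icam1 74.1 and 146 CPM. Tnfaip3, a brake on the same pathway, was 118 and 206 CPM. In cells without Mki67 or Top2a, 7 of 19 members were at least 2-fold higher and the median was 0.87, and in cells with them 1 of 19 was, with a median of 0.34. Over all genes 280 were at least 2-fold higher in cells without Mki67 or Top2a. Their share of the genes measured there was not calculated, so the 7 of 19 cannot be set against it. Relb stood 2.92-fold higher in dividing cells and 2.91-fold higher in the others, whereas Nfkb1, a subunit of the classical pathway, stood 0.955-fold and 2.14-fold. Nfkbia was 169 and 259 CPM but may come from free RNA.

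Transcripts that tissue dissociation induces were mixed, with 1 of 19 measured members at least 2-fold higher and 1 at least 2-fold lower. Hspa1a was 1333 CPM (845 UMIs in 42 cells) and 544 CPM (145 UMIs in 34 cells), whereas Fosb was 117 and 240 CPM and Junb 563 and 949 CPM. Hspa1a and Hspa1b are near-identical copies. Fosb and Junb were higher in the same library as the NF-kB genes, and Hspa1a was lower in the same library as Gzmb and Ccl4. The part of dissociation in those values was not tested.

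Among 12 measured interferon-stimulated genes, 2 lay at least 2-fold above the control and 0 below, and the median was 0.39. Ifi27l2a had 19 UMIs in 6 control cells and 44 UMIs in 24 cells of the other library, with a ratio of 5.51 (3.15 to 9.99). Irf7 was 34.7 and 78.8 CPM on 22 and 21 UMIs. Isg15 was 45.7 and 67.5 CPM and Irf1 178 and 221 CPM. Class I antigen presentation genes were within 2-fold in 12 of 14 measured members, with B2m at 986 and 1392 CPM, H2-K1 at 1386 and 1914 CPM and the immunoproteasome gene Psmb8 at 470 and 349 CPM.

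**Figure D3:**
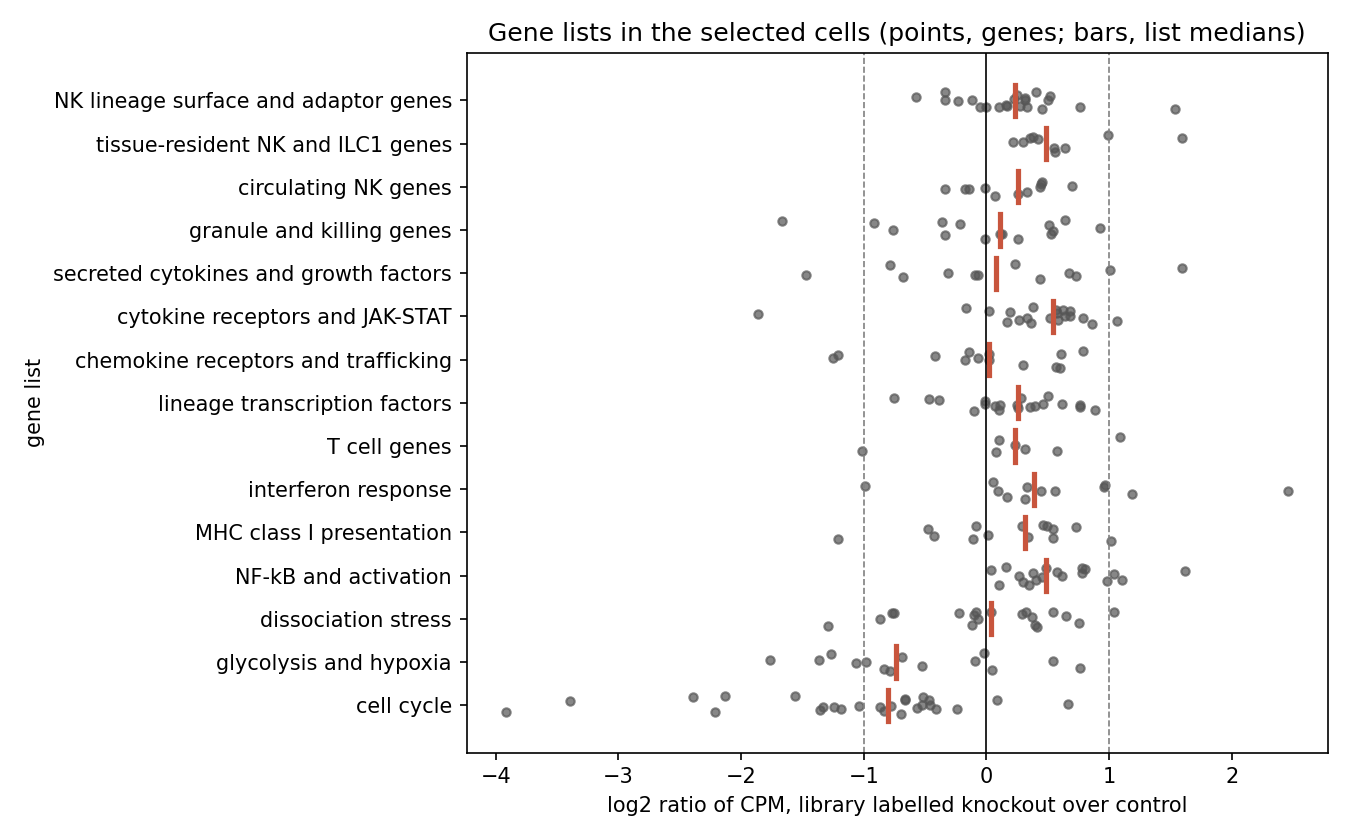
Log2 ratio of CPM, library labelled knockout over control, for the measured members of 15 gene lists in the selected cells. Points are genes with at least 20 UMIs, red bars list medians and dashed lines the 2-fold limits. The cell cycle and glycolysis medians were -0.81 and -0.74, and the other medians lay between 0.02 and 0.54.

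Steroid-responsive genes, of interest since progesterone acts on the uterus at this day, were within 2-fold for 10 of 10 measured members. Nr3c1, the glucocorticoid receptor, was 342 and 402 CPM, and its target Tsc22d3 was 103 and 109 CPM. Homing genes were within 2-fold in 11 of 13, with Ccr2 at 140 and 143 CPM and the selectin ligand Selplg at 358 and 529 CPM. The members below were Ccr7 (33 and 6 UMIs) and Cxcr3 (17 and 3 UMIs). Of 7 measured T cell genes, 1 was at least 2-fold higher and 1 at least 2-fold lower, with a median of 0.23. The higher one was the costimulator Cd28, at 120 and 255 CPM, with a ratio of 2.13 (1.51 to 2.99). The kinase Lck was 169 and 251 CPM. Of 4 measured inhibitory receptors, 0 were at least 2-fold higher and 1 at least 2-fold lower, with a median of -0.44. The checkpoint receptor Pdcd1, below the limit of 20 UMIs, had 14 UMIs in 5 control cells and 0 in the other library.

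The genes highest in the library labelled knockout, in the order of how far the interval of the ratio stayed from 1 and without free RNA genes, were Camkmt, Ifi27l2a, Dhrs3, Abcg1, Mgll, Smyd3, Relb, Zhx2, Neurl3 and Asap1. Camkmt, which methylates calmodulin, was 17.4 CPM (11 UMIs in 10 cells) and 131 CPM (35 UMIs in 23 cells), with a ratio of 7.57 (3.76 to 16.5). Dhrs3, an enzyme that reduces retinaldehyde, was 69.4 CPM (29 cells) and 274 CPM (59 cells), with a ratio of 3.95 (2.68 to 5.88). The lipid genes Abcg1, which exports cholesterol, and Mgll, a monoacylglycerol lipase, had ratios of 5.71 (2.63 to 13.4) and 4.16 (2.46 to 7.19). Mgll was 7.43-fold higher (3.81 to 14.9) among dividing cells, and among the others its ratio was 2.30 with an interval that included 1 (0.942 to 6.17). The methyltransferase gene Smyd3 was 125 and 394 CPM and the ubiquitin ligase gene Neurl3 181 and 480 CPM.

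The lowest by the same ranking were Fdps, Nme1, Mcm2, Pole, Ranbp1, C1qbp, Hspa1a, Eif5a, Spp1 and Dtl. Fdps, farnesyl diphosphate synthase of the sterol pathway, had 81 UMIs in 44 control cells and 2 UMIs in 2 cells of the library labelled knockout, with a ratio of 0.0587 (0.00699 to 0.219). Nme1, a nucleoside diphosphate kinase, was 532 and 146 CPM, and Eif5a, a translation elongation factor, 1383 and 585 CPM. Pole, the catalytic subunit of a replicative DNA polymerase, had 36 and 1 UMIs, and Dtl, which marks replication proteins for destruction, 57 and 5. Mcm2, Pole and Dtl among these 10 are genes of DNA replication. Fdps, Nme1, Ranbp1, C1qbp, Hspa1a, Eif5a and Spp1 were lower both in cells with and in cells without Mki67 or Top2a. The ratio of Ranbp1 was 0.489 with and 0.195 without them.

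**Figure D4:**
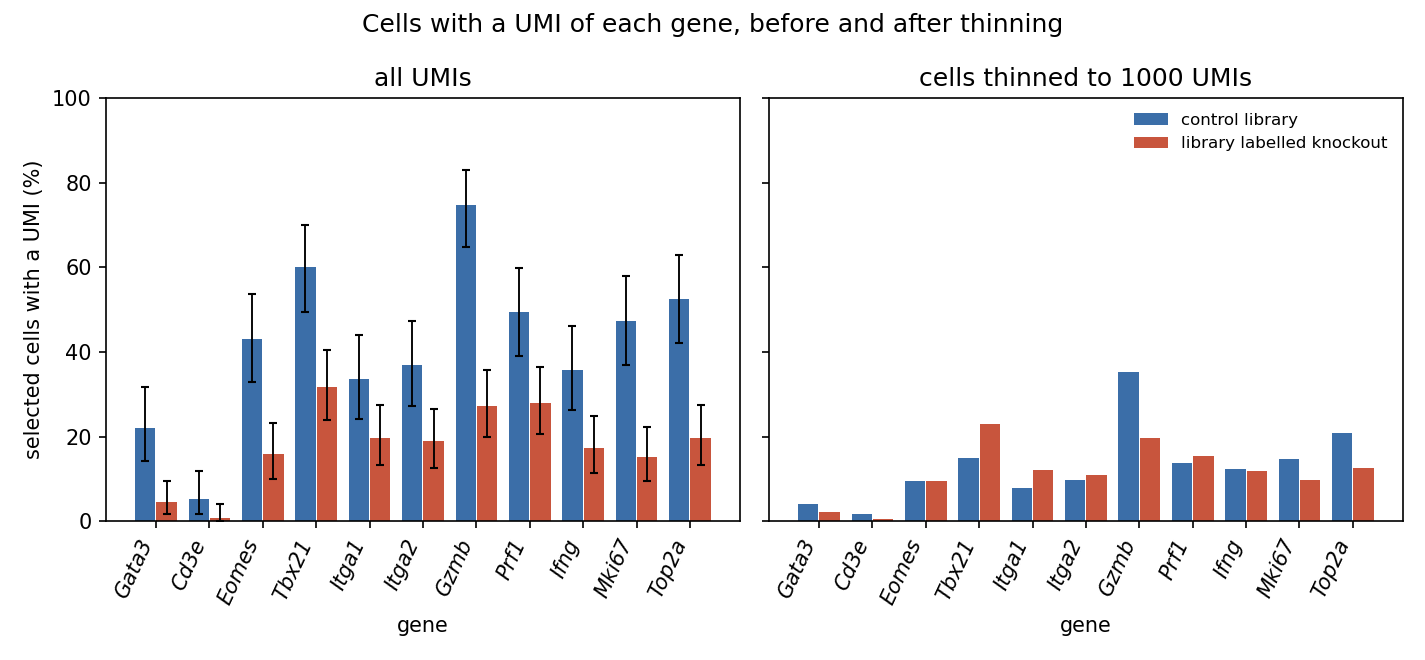
Percent of selected cells with at least 1 UMI of 11 genes in the control library and the library labelled knockout, at full depth with exact 95% binomial intervals (left) and after calculated thinning of each cell to 1000 UMIs (right). Gata3 went from 22.1% and 4.55% to 4.23% and 2.32%, and Eomes from 43.2% and 15.9% to 9.47% and 9.67%.

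Shares of cells with a UMI showed how far depth reached. At full depth Eomes was in 43.2% and 15.9% of cells, and at 1000 UMIs per cell in 9.47% and 9.67%. Tbx21 turned from 60.0% and 31.8% to 15.1% and 22.9%, and Itga1 from 33.7% and 19.7% to 8.02% and 12.1%. Prf1 was 49.5% and 28.0% at full depth and 13.7% and 15.6% thinned. At 1500 UMIs per cell, which leaves 93 and 77 cells, Eomes was in 14.0% and 12.0%, Tbx21 in 21.8% and 31.3%, Itga1 in 11.5% and 17.7% and Prf1 in 19.5% and 24.0%. For Tbx21, Itga1 and Prf1 the lower share in the library labelled knockout was thus not kept at either depth, and for Eomes it was not kept at 1000 UMIs and was small at 1500 UMIs. For Gzmb, Mki67 and Top2a the control stayed higher at both depths.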

How the data were processed

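The deposited matrices hold integer UMI counts per gene and barcode made by the authors; the file headers name Cell Ranger 7.0.1. The submitters' processing notes add Seurat (version not given) and mm39. The depth per library was 44871170 and 23317904 UMIs. Barcodes were kept from 500 genes up and to 15% mitochondrial UMIs, and NK cells were selected by the rule in the text. No doublets were removed. Removing the highest Scrublet scores (scanpy 1.11.5) was an alternative, and 3 of 171 and 1 of 78 removed barcodes were selected cells. Counts were summed over selected cells and divided by their total (CPM). Ratios have exact conditional 95% intervals and were called at 2-fold among genes with at least 20 UMIs. A library at 0 was set to a floor of 3 UMIs. The method was tested on simulated counts. The members and lists were chosen with earlier results of these data known. Named genes were list members and the 10 highest and 10 lowest by the bound of the ratio nearest 1, with at least 50 CPM, without ribosomal, mitochondrial, hemoglobin, unnamed and free RNA genes. For cells with Gata3 or Cd3e, the 10 highest genes against the cells without were ranked, with the same kinds of genes left out. Gata3 genes were ranked by the lower of the 2 libraries' lower bounds, and Cd3e genes by the lower bound of the sums over both libraries. Both rankings asked for at least 20 UMIs in the positive cells and set no CPM or fold limit. Alternatives changed the selection, the scaling, the minimum counts, the cells and the depth. Stroma (2780 and 856 cells) and epithelium (738 and 1455) of the same libraries gave the free RNA level. Python 3.11.15 was used.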

Additional observations from a re-analysis of the deposited data

How the results depend on the processing

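The limits are 1 library per genotype, a depth that differs between the libraries, and a rule that needs 3 detected markers. Of the 2 gene counts, 26 of 30 alternatives stayed within 1.5 times the main counts of 270 higher and 428 lower. The exceptions were a minimum of 1 UMI (686 higher), a minimum of 50 UMIs (92 higher, 141 lower) and leaving out cells with Mki67 or Top2a (230 lower), the last added after seeing the data. Scaling by the median of ratios gave 199 higher and 520 lower. The NK share moved beyond its counting interval with each kept cell thinned to 1000 UMIs before the rule (1.69% and 3.59%), also added later, and with at least 1000 genes (2.54% in the library labelled knockout). The Gata3 share was 3.16% and 0% at 2 UMIs or more, 4.23% thinned to 1000 UMIs and 6.37% thinned to 1500 UMIs in the control. The Cd3e share was 1.68% in the control thinned to 1000 UMIs, and 0% in the library labelled knockout at 2 UMIs or more, at 1000 genes or more and thinned to 1500 UMIs. The Il5 share was 0 in 18 of 18 alternatives. These used the same selected cells or part of them, so no other value was possible. The log2 ratio of Ccl5 turned to -0.48 with at least 1000 genes and to -0.065 with cells of at least 1000 UMIs weighted equally. That of Hspa8 turned to 0.0067 with at least 1000 genes. Without cells with Mki67 or Top2a, the log2 ratio turned to 0.36 for Id2, 0.46 for Ube2c, 0.16 for Hmgb2 and 0.10 for Tubb5, and the median of the steroid-responsive list to -0.18. The cause was not tested. Of 3671 alternative values of single genes, 3597 stayed inside the counting interval of the main value. Part of these could not move. The changed minimum counts and leaving out free RNA genes only filtered genes. The lower limit of the marker sum selected the same cells, which also fixed its gene counts. Without cells with Mki67 or Top2a, 143 values stayed inside, 37 moved out and 4 turned in sign. No paired analysis was possible because each group has 1 library.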
